A study of Xenopus laevis x Xenopus muelleri with 6 samples.

Results

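Protein phosphatases and signalling kinases were followed in the testis of hybrid frogs through 164 of the 11485 probe sets of the deposited table. A probe set was taken as a member where the platform table gave it exactly 1 gene symbol and that symbol, without its .L or .S ending, began with ppp or ppm and a digit, ptpn, dusp, mapk, map2k, map3k, prka, prkc, camk, csnk, akt and a digit, rps6k, nek, stk or ywha. The 164 probe sets stood for 116 symbols and 100 genes, out of 6798 probe sets and 5790 symbols with a single name. The ending marks the L and S copies that X. laevis keeps from its ancestral genomes. Prefixes for calmodulin (calm and a digit), GSK3 (gsk3) and the testis-specific kinases (tssk) were searched too and found 0 probe sets, so these genes were not analysed here. One further probe set carried a fitting symbol together with another and was left out.

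All animals were hybrids with a Xenopus laevis mother (Cape of South Africa) and a X. muelleri father (Swaziland), raised from eggs under a 12L:12D photoperiod and sampled as sexually mature adults. Total RNA of the testis was hybridised to 1-colour Affymetrix arrays, 3 from testes of sex-reversed animals and 3 from normal testes, with 1 sample per array. Each group's samples are labelled as biological replicates, without a statement that every one came from a separate animal. A p-value therefore sets a group difference against the spread of these samples, which may not be a spread between animals. How sex was reversed, and the animals' genetic sex and age, were not stated in the labels. The question put to the members is whether sex-reversed and normal hybrid testes differ in them.

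Kinases add phosphate to serine, threonine or tyrosine residues of other proteins, and phosphatases take it off. Most serine and threonine phosphatases of the PPP family are complexes, in which a few catalytic subunits are steered to their substrates by many regulatory subunits, while PPM enzymes act as single chains and PTPN and DUSP enzymes remove phosphate from tyrosine or from both kinds of residue. In the testis of mammals such switches act in mitosis and meiosis of germ cells, in the shaping of spermatids, and through cyclic AMP and calcium in the motility of sperm. The 14-3-3 proteins (ywha genes) are adaptors that bind phosphorylated sites.

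The germ cell markers ddx4.L and dazl.L were near the top of the scale on every array, at log2 values of 12.4 to 12.6 and 11.9 in sex-reversed testis and of 12.4 to 12.8 and 11.7 to 12.1 in normal testis. Array medians lay between 5.25 and 5.31. Markers of smooth muscle and of peritubular cells (7 of 13 genes measured, 11 probe sets, 10 higher and 1 lower, median difference 0.50) had a mean log2 deviation from each probe set's mean of 0.0709 to 0.356 on the sex-reversed arrays and of -0.358 to -0.0641 on the normal arrays, so the groups did not overlap. Sertoli cell markers (5 of 9 genes, 8 probe sets, 3 higher and 5 lower) lay at -0.239 to -0.00647 on the sex-reversed arrays. On the normal arrays they lay at -8.95e-05 to 0.240, without overlap of these means but by a narrow margin. The Sertoli probe sets of dhh.S, dhh.L and gata4.S and a probe set of gja1.L had group means of 2.61 to 3.46. These lay below the 25th percentile of the arrays (3.66 to 3.71), and signal over background was not measured. The probe sets of fshr.L differed by -0.65 and 0.10. Taken singly, 0 of the 11 smooth muscle and 2 of the 8 Sertoli probe sets had groups apart, beside 9.63% of all probe sets. The part of either list in the values below was not tested. For the lists of spermatids (4 higher, 4 lower), blood (1 higher, 6 lower), oocytes (1 higher, 3 lower), kidney (2 higher, 3 lower) and immune cells (3 higher, 1 lower) the arrays of the groups overlapped, and 0 probe sets of any marker list passed an adjusted p of 0.05 in limma. Of the steroidogenic list 1 of 8 genes was measured, cyp17a1.L, whose probe sets read 5.23 and 5.17 on sex-reversed replicate 3 and at least 8.14 on each other array. Arrays measure RNA of the whole testis, in which fewer cells of a type and less RNA per cell cannot be told apart.

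None of the 164 probe sets passed an adjusted p of 0.05 between sex-reversed and normal testis (limma, smallest adjusted p = 0.997), where 0% of all probe sets passed. An unmoderated test also called 0. With an unadjusted p under 0.05 there were 3 members (ppp2cal.S, ptpn13.L and prkag1.L), 1.83% of the members, beside 4.42% of all probe sets. Of these 3, 2 lay higher in sex-reversed testis and 1 lower, where 2.26% and 2.16% of all probe sets did so. The means of 73 members (44.5%) were higher in sex-reversed testis, beside 51.3% of all probe sets, and those of 91 were lower. Their median log2 difference was -0.04, beside 0.01 over all probe sets. The median of the members was 0.001 without normal replicate 3. The absolute difference had a median of 0.19 in the members and 0.21 over all probe sets. In 76 members (46.3%) the sign of the difference turned when 1 of the arrays was left out, beside 49.5% of all probe sets. A single member, a probe set of ppp1ca.L, had group means at least 2-fold apart (0.61%, beside 2.56% of all probe sets).

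The intervals show how closely the arrays bound these differences. Bounds inside 2-fold on both sides were reached by 104 members (63.4%, beside 62.5% of all probe sets). Bounds inside 1.5-fold were reached by 12 (7.32%, beside 8.69%). Members were measured higher on the scale than the table as a whole, with 108 (65.9%) above the median level, beside 50% of all probe sets. In 17 members of 14 symbols all 3 arrays of a group lay above all 3 of the other, 10 with sex-reversed testis higher and 7 with it lower. That is 10.4% of the members, near the 9.63% of all probe sets, of which 5.37% were higher and 4.26% lower. Across the members, a sex-reversed and a normal array were on average 0.640 log2 units apart (root mean square, range 0.550 to 0.756), and a pair of arrays of the same group 0.657 (range 0.545 to 0.717). Arrays of the same kind of testis were about as far apart in these genes as arrays of different kinds, as they were over all probe sets (0.698 between the groups and 0.701 within them).

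**Figure D1:**
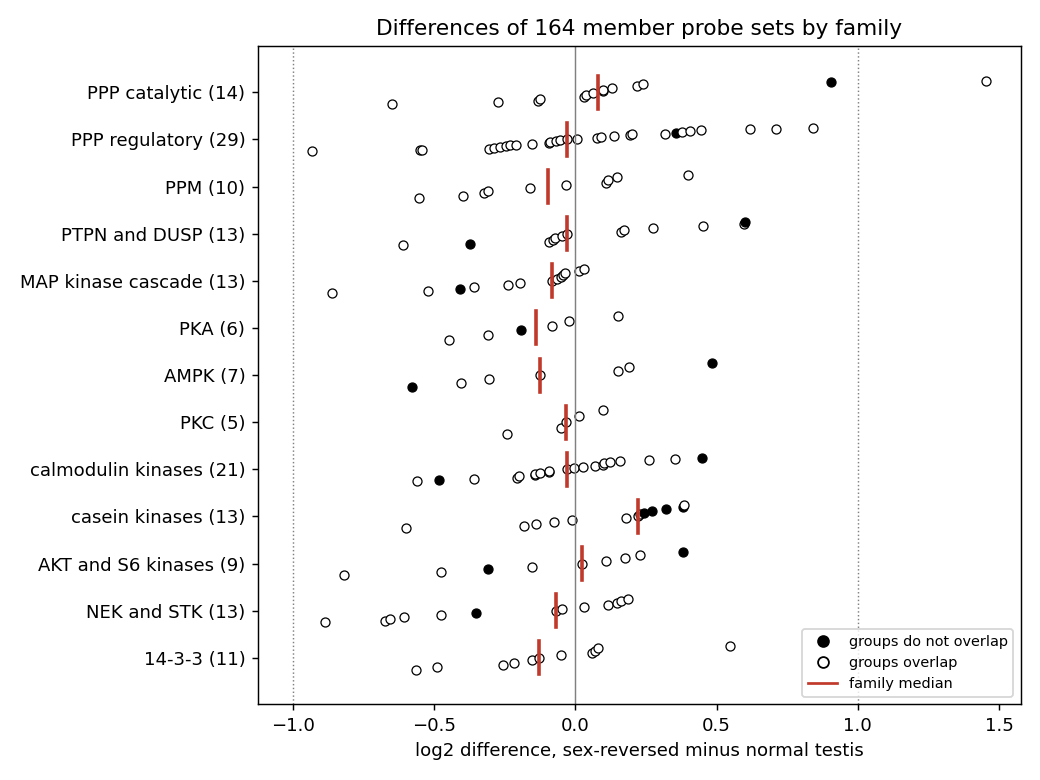
Log2 difference between sex-reversed and normal testis (horizontal axis, positive where sex-reversed is higher) for each of the 164 member probe sets, by family with its number of probe sets. Filled points are the 17 probe sets whose groups do not overlap, bars are family medians and dotted lines mark 2-fold; a single point, of ppp1ca.L, lies beyond them.

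Catalytic subunits of the PPP family were represented by 14 probe sets, and 10 of these means lay higher and 4 lower in sex-reversed testis (median 0.08, 0 passed). The largest difference of all members belonged to ppp1ca.L, the alpha catalytic subunit of PP1, in a probe set with log2 values of 7.59, 7.30 and 8.19 in sex-reversed testis and 3.78, 6.71 and 8.24 in normal testis. Normal replicate 1 alone was low there, and the highest array was also a normal one. The difference of 1.45 had a 95% interval of -0.86 to 3.77 and shrank to 0.22 without normal replicate 1. A second probe set of ppp1ca.L gave no such low array, with 9.23, 9.61 and 9.82 in sex-reversed testis and 9.37, 9.38 and 9.61 in normal testis (difference 0.10, interval -0.44 to 0.64).

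The gene ppp2cal.S, named as a relative of the PP2A catalytic subunit, had the smallest unadjusted p of the members, 0.016. Its values were 6.01, 6.33 and 6.45 in sex-reversed testis and 4.79, 5.64 and 5.64 in normal testis. All sex-reversed arrays lay above all normal ones, with means of 6.26 ± 0.23 and 5.36 ± 0.49 (SD, n = 3 each). The log2 difference was 0.91 (interval 0.22 to 1.59), a 1.87-fold difference that did not pass (limma, adjusted p = 0.997), and it was 0.62 without normal replicate 1.

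Other catalytic subunits overlapped between the groups. PP1 gamma, which male mice need to make sperm, ranged between 7.69 and 8.22 in sex-reversed and between 7.66 and 8.02 in normal testis for ppp1cc.L (difference 0.03, interval -0.52 to 0.58). For ppp1cc.S the values were 7.01, 7.50 and 8.01 in sex-reversed and 7.72, 7.85 and 7.76 in normal testis (-0.27, interval -0.93 to 0.39). Calcineurin, the phosphatase that calcium and calmodulin switch on, was read through ppp3ca.S (3 probe sets, -0.13 to 0.13) and ppp3cc.L, whose mouse counterpart is used in sperm. The probe sets of ppp3cc.L gave -0.65 and 0.06, the first with 4.96, 4.28 and 6.41 in sex-reversed and 6.44, 4.88 and 6.27 in normal testis, so that values near 6.4 and under 5 occurred in both groups. The catalytic subunits of PP4 and PP6, ppp4c.S and ppp6c.S, differed by 0.24 and -0.12.

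Regulatory subunits numbered 29 probe sets, 14 higher and 15 lower in sex-reversed testis (median -0.03, 0 passed). Subunits of PP2A, both the scaffold and those that choose the substrates of that enzyme, had a median of 0.10 over 12 probe sets. They ran from -0.27 (scaffold subunit ppp2r1a.L) to 0.71 (ppp2r2b.L). Values of ppp2r2b.L were 5.50, 6.20 and 4.99 in sex-reversed and 4.44, 4.97 and 5.14 in normal testis, with sex-reversed replicate 3 inside the normal range. PP1 subunits had a median of -0.15 over 13 probe sets. Among these ppp1r15b.L, which steers PP1 to the translation factor eIF2 alpha, had the largest difference, -0.93 (interval -2.18 to 0.31), in a probe set named for cross-hybridisation (its name ends in _x_at). It read 5.68, 6.12 and 4.34 in sex-reversed and 6.65, 5.47 and 6.83 in normal testis, and without sex-reversed replicate 3 the difference was -0.41. Its other probe set differed by 0.20. The PP4 subunit ppp4r2.S read 7.39, 7.65 and 7.10 in sex-reversed and 7.27, 5.22 and 7.13 in normal testis. Normal replicate 2 alone was low, and the difference of 0.84 (interval -0.40 to 2.08) was 0.18 without it.

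PPM phosphatases, among them stress kinase antagonists, were 4 higher and 6 lower (10 probe sets, median -0.10, 0 passed). The nuclear enzyme ppm1g.S read 6.19, 7.55 and 7.42 in sex-reversed and 8.08, 7.42 and 7.32 in normal testis, and its difference of -0.55 (interval -1.50 to 0.40) was -0.12 without sex-reversed replicate 1. For ppm1b.S a probe set gave 6.03, 6.25 and 5.23 in sex-reversed and 5.69, 5.71 and 4.91 in normal testis (0.40, interval -0.41 to 1.21), and 2 others gave 0.15 and -0.32.

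Genes with the ptpn and dusp prefixes, tyrosine and dual specificity phosphatases, were 6 higher and 7 lower over 13 probe sets (median -0.03, 0 passed). The dusp prefix also took in dusp11.L (0.45 and -0.05), whose product acts mainly on RNA. The large cytoplasmic tyrosine phosphatase gene ptpn13.L read 3.69, 3.79 and 3.56 in sex-reversed and 3.48, 2.91 and 2.85 in normal testis, with no overlap. Its difference of 0.60 (interval 0.03 to 1.17; adjusted p = 0.997 in limma) lay low on the scale, since the 25th percentile of the arrays was 3.66 to 3.71 and signal over background was not measured. Values of dusp19.L, a dual specificity phosphatase of the stress kinase pathway, were 2.76, 2.66 and 3.87 in sex-reversed and 4.19, 2.90 and 4.03 in normal testis. They overlapped, with a difference of -0.61 (interval -1.66 to 0.44), and their mean over all arrays, 3.40, also lay below that percentile.

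**Figure D2:**
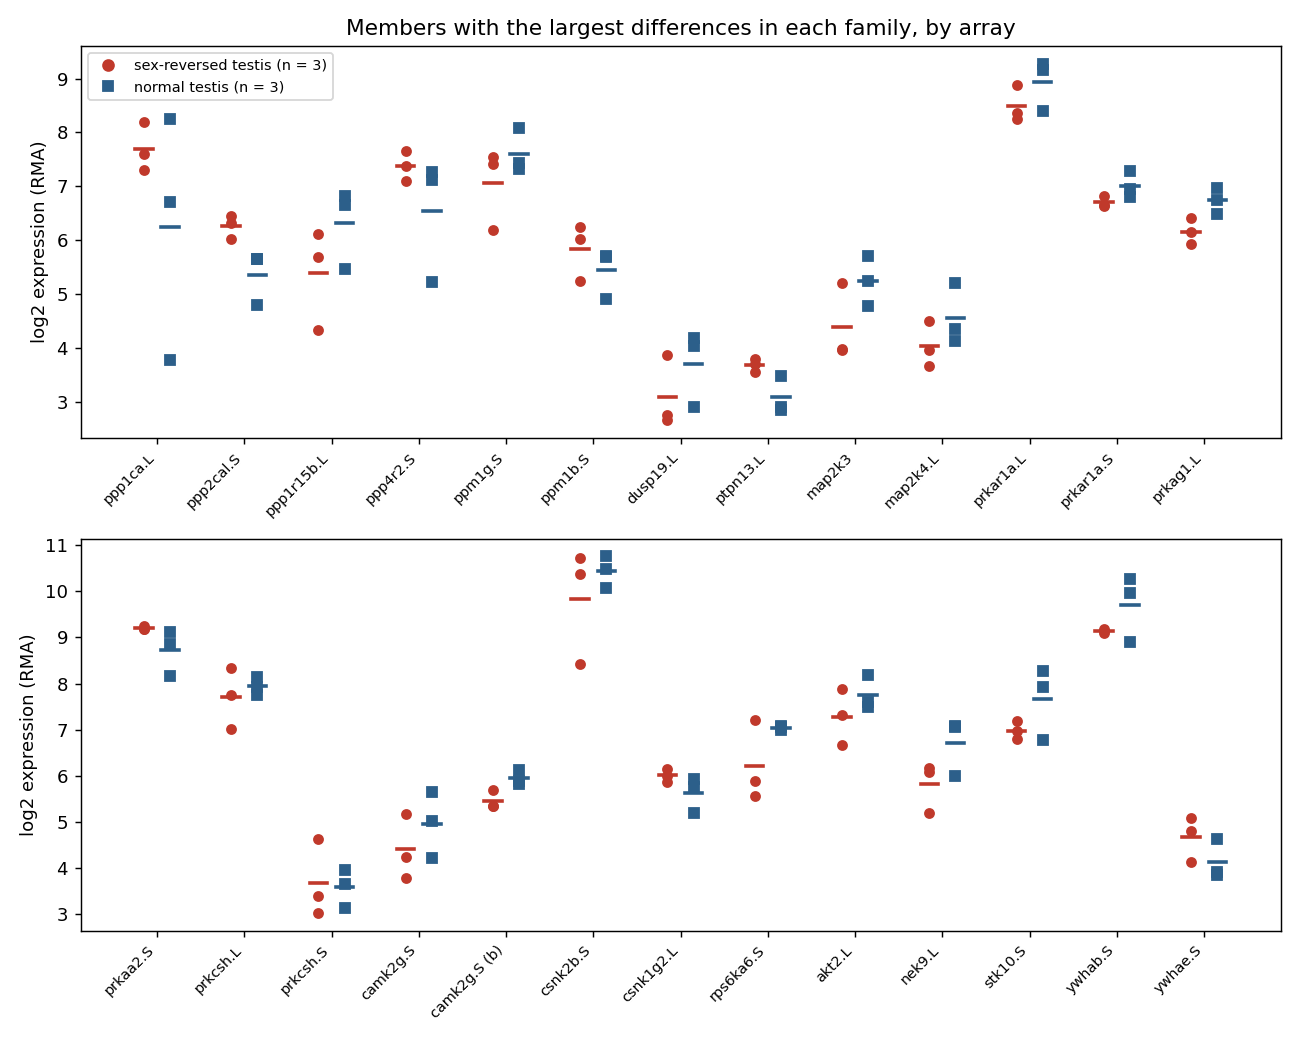
Log2 expression on each array for the 2 probe sets with the largest absolute difference in each of 13 families, sex-reversed testis (circles) left of normal testis (squares), bars at the group means; (b) marks a second probe set of a gene. In most of them the groups overlap, as in ppp1ca.L, where a single normal array at 3.78 is low; ppp2cal.S, ptpn13.L, prkag1.L, prkaa2.S and camk2g.S (b) are separate.

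The MAP kinase cascade passes signals from MAP3 kinases over MAP2 kinases to MAP kinases. Among its 13 probe sets the sex-reversed mean was the higher in 2 and the lower in 11 (median -0.08, 0 passed). The mapk prefix also took in mapkbp1.L (-0.41, interval -0.90 to 0.08), a binding protein of MAP kinases and no kinase. The MAP2 kinase map2k3, which activates p38, read 3.96, 5.20 and 3.98 in sex-reversed and 4.78, 5.23 and 5.71 in normal testis. Sex-reversed replicate 2 lay inside the normal range, and the difference of -0.86 had an interval of -1.80 to 0.08. The JNK activator map2k4 gave 3.96, 3.66 and 4.50 in sex-reversed and 4.35, 5.20 and 4.13 in normal testis for its L copy (-0.52, interval -1.34 to 0.30). Its S copy differed by -0.20 (0.09 without sex-reversed replicate 3). MEK1 (map2k1.L, 0.03) and the JNK copies mapk8.L (-0.24) and mapk8.S (-0.04) had overlapping groups. TAK1, the MAP3 kinase map3k7.L, had the narrowest range of the members: it read 7.15, 7.16 and 7.08 in sex-reversed and 7.17, 7.21 and 7.16 in normal testis, a range of 0.13 over all arrays and a difference of -0.05 (interval -0.49 to 0.39).

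Protein kinase A, the main effector of cyclic AMP, was read by 6 probe sets with 1 higher and 5 lower mean in sex-reversed testis (median -0.14, 0 passed). Its catalytic subunit prkacb.S lay between 6.97 and 7.14 in sex-reversed and between 7.15 and 7.28 in normal testis. Those groups did not overlap, by a margin of 0.01, and the difference was -0.19 (interval -0.64 to 0.26). The regulatory subunit prkar1a, which holds the catalytic subunits inactive, gave 8.36, 8.26 and 8.88 in sex-reversed and 9.28, 9.17 and 8.39 in normal testis in a probe set of the L copy (-0.45, interval -1.17 to 0.28). Other probe sets of prkar1a.L lay at 0.15 and -0.08, and prkar1a.S at -0.31 (interval -0.82 to 0.21). The 3 probe sets of prkar1a.L and the 1 of prkar1a.S share a sequence cluster, so they are not independent readings in the tally of PKA.

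AMPK, the sensor of low cellular energy, had 7 probe sets, 3 higher and 4 lower (median -0.12, 0 passed), and 2 of them had groups that did not overlap (beside 9.63% of all probe sets), in opposite directions. The gamma subunit prkag1.L, the part that binds AMP, read 5.92, 6.15 and 6.41 in sex-reversed and 6.48, 6.75 and 6.97 in normal testis. Its means were 6.16 ± 0.25 and 6.74 ± 0.25 (SD, n = 3 each), a difference of -0.58 (interval -1.13 to -0.02; adjusted p = 0.997 in limma). A second probe set of prkag1.L overlapped, at 5.62, 6.96 and 7.24 in sex-reversed and 6.67, 6.76 and 7.60 in normal testis, and its difference of -0.40 was 0.09 without sex-reversed replicate 1. The catalytic subunit prkaa2.S read 9.19, 9.18 and 9.25 in sex-reversed and 8.17, 8.86 and 9.12 in normal testis, where the sex-reversed arrays were close together (SD 0.04) and the normal ones spread (SD 0.49). Its difference was 0.49 (interval -0.17 to 1.14).

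Of the protein kinase C probe sets, those of the atypical kinases prkci.L and prkcz.L lay between -0.05 and 0.015. One of them, of prkcz.L, read 6.52, 6.50 and 6.66 in sex-reversed and 6.54, 6.57 and 6.53 in normal testis, with an interval of -0.43 to 0.46. The prkc prefix also took in prkcsh, which is no kinase but the beta subunit of glucosidase II in the endoplasmic reticulum. Its copies differed by -0.24 (prkcsh.L, interval -1.05 to 0.57) and 0.10 (prkcsh.S, interval -0.92 to 1.12). The sign of prkcsh.L turned without sex-reversed replicate 1, and that of prkcsh.S without sex-reversed replicate 3 or normal replicate 1.

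Kinases that calmodulin activates were read by 21 probe sets, 9 higher and 12 lower in sex-reversed testis (median -0.03, 0 passed). Of these 21, 14 carried a single symbol, camk2g.S, the gamma form of CaM kinase II. The names of 13 of the 14 end in _x_at or _a_at, which mark probes shared with other transcripts. The 14 probe sets are not independent readings of the gene. Their mean levels ran from 2.71 to 8.70, and their differences from -0.56 (interval -1.64 to 0.53) to 0.45 (interval -0.02 to 0.92), with 4 positive and 10 negative. The probe set at 0.45 read 6.36, 6.70 and 6.59 in sex-reversed and 6.05, 6.11 and 6.15 in normal testis, with all sex-reversed arrays higher. Another had the groups apart in the other direction, at 5.68, 5.34 and 5.35 in sex-reversed and 6.13, 5.81 and 5.87 in normal testis (-0.48, interval -0.99 to 0.02).

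**Figure D3:**
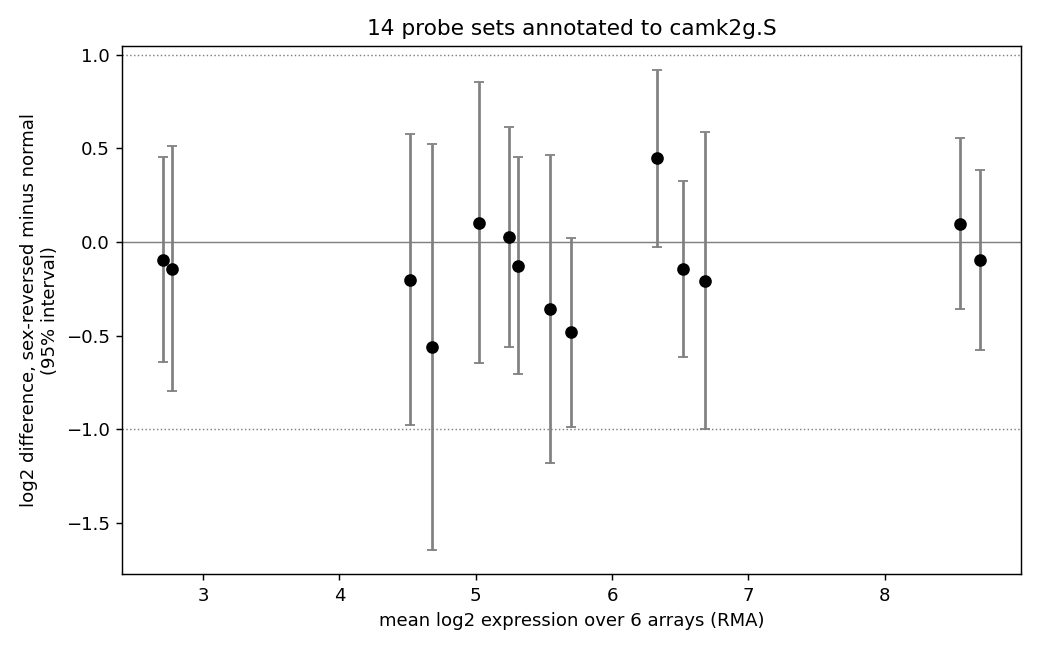
Mean log2 expression over the 6 arrays (horizontal axis) and log2 difference between sex-reversed and normal testis with its 95% interval (vertical axis) for the 14 probe sets annotated to camk2g.S; dotted lines mark 2-fold. Differences run from -0.56 to 0.45, and the interval of each probe set includes 0.

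Casein kinases, which act in Wnt signalling, circadian timing and many other settings, were 8 higher and 5 lower over 13 probe sets, with a median of 0.22 and 0 passed. In 4 of the 13 the groups did not overlap, all with sex-reversed testis higher, where 9.63% of all probe sets did not overlap and 5.37% did so with sex-reversed testis higher. Of these, 3 of the 4 belonged to the membrane-bound kinase gene csnk1g1.S. The other was a probe set of csnk1d.S with a mean level of 3.12, below the 25th percentile of the arrays (difference 0.24). Further probe sets of csnk1d.S, at mean levels of 9.65 and 9.44, had overlapping groups (-0.08 and 0.22). The 4 probe sets of csnk1g1.S differed by 0.23 to 0.38. The first read 6.25, 6.19 and 6.01 in sex-reversed and 5.75, 5.76 and 5.80 in normal testis (0.38, interval -0.07 to 0.84). A second, of another sequence cluster, read 5.15, 5.23 and 5.31 in sex-reversed and 4.98, 4.94 and 4.96 in normal testis (0.27, interval -0.17 to 0.71). The other 2 share the first one's cluster, so the 4 are not independent readings. The related csnk1g2.L read 6.15, 5.99 and 5.87 in sex-reversed and 5.18, 5.76 and 5.92 in normal testis (0.38, interval -0.21 to 0.98), whereas csnk1g3.L and csnk1g3.S lay at -0.18 and -0.01. The regulatory subunit of casein kinase 2, csnk2b.S, read 10.37, 8.43 and 10.72 in sex-reversed and 10.76, 10.49 and 10.07 in normal testis. Sex-reversed replicate 2 alone was low there, and the difference of -0.60 was 0.10 without it.

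AKT, the kinase downstream of PI3 kinase, and the ribosomal S6 kinases were 5 higher and 4 lower over 9 probe sets (median 0.02, 0 passed). RSK4, rps6ka6.S, read 5.88, 5.56 and 7.21 in sex-reversed and 7.07, 6.99 and 7.05 in normal testis. The normal arrays were within 0.08 of each other, and a pair of sex-reversed arrays lay more than 1 log2 unit below them while the third lay above (-0.82, interval -1.78 to 0.15). RSK2, rps6ka3.L, read 8.55, 8.65 and 8.67 in sex-reversed and 9.07, 8.89 and 8.83 in normal testis, without overlap (-0.31, interval -0.77 to 0.15). For akt2.L the values were 7.31, 6.66 and 7.88 in sex-reversed and 7.50, 8.18 and 7.59 in normal testis (-0.48, interval -1.30 to 0.35), and akt1.S differed by 0.02.

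NEK kinases of the centrosome and spindle and genes of the STK series were 5 higher and 8 lower over 13 probe sets (median -0.07, 0 passed). The stk prefix also took in stk11ip.L (0.15), which encodes a protein that binds the kinase STK11 and is no kinase. The mitotic kinase nek9.L read 5.20, 6.08 and 6.17 in sex-reversed and 7.07, 5.98 and 7.05 in normal testis. Normal replicate 2 lay among the sex-reversed arrays, and the difference was -0.89 (interval -1.80 to 0.03). The related kinase nek6.S, named here after its value was seen, differed by -0.66 (interval -1.76 to 0.45). Without sex-reversed replicate 1 the difference of nek6.S was -0.22. The 7 NEK probe sets split into 4 positive and 3 negative differences (median 0.03). Those of nek8.S were 0.16 and 0.19, that of nek4.S was 0.03, and those of nek2.S were 0.11 and -0.60. For stk10.S, a kinase that links membrane and actin skeleton, the values were 6.78, 7.18 and 6.98 in sex-reversed and 8.26, 7.93 and 6.77 in normal testis (-0.67, interval -1.58 to 0.23).

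The 14-3-3 adaptors were 4 higher and 7 lower over 11 probe sets (median -0.13, 0 passed). In 0 of the 11 were the groups apart, beside 9.63% of all probe sets. The probe sets of ywhab.S lay at -0.56, -0.25 and 0.08. The first of these read 9.11, 9.15 and 9.18 in sex-reversed and 9.96, 10.26 and 8.91 in normal testis, so that normal replicate 3 lay below the tightly grouped sex-reversed arrays. For ywhae.S a probe set read 5.08, 4.81 and 4.13 in sex-reversed and 3.83, 4.63 and 3.91 in normal testis (0.55, interval -0.23 to 1.33), while another differed by 0.06 (interval -0.53 to 0.65).

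Several of these differences rested on a single array. The range over the 6 arrays had a median of 0.85 in the members and 0.92 over all probe sets, and 10 members (6.1%, beside 8.18% of all probe sets) spanned at least 4-fold. The widest were ppp1ca.L (4.47, a 22.1-fold span), ppp4r3b.L (3.02), ppp1r14a.L (3.02), stk31.S (2.53), ppp1r15b.L (2.49) and mapk14.S (2.48). In each of these the groups overlapped. The PP4 subunit ppp4r3b.L read 7.10, 5.91 and 5.89 in sex-reversed and 6.88, 4.55 and 7.57 in normal testis, with a difference of -0.03 between the means. For ppp1r14a.L, an inhibitor of myosin phosphatase in smooth muscle, normal replicate 1 stood out at 6.66, against 3.65 and 3.99 on the other normal arrays, and the sex-reversed arrays read 3.91, 4.36 and 5.12. On normal replicate 1 the smooth muscle markers were at their lowest mean deviation, -0.358, while the blood and Sertoli cell markers were at their highest, 0.653 and 0.240. Among the Sertoli probe sets dhh.S, low on the scale, read 4.37 on that array and 2.92 and 2.97 on the other normal arrays. The part of these cells in the value of ppp1r14a.L was not tested. The p38 kinase mapk14.S read 4.41, 6.45 and 6.08 in sex-reversed and 5.71, 5.40 and 6.89 in normal testis.

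A pair of kinases were low on the same arrays, a sex-reversed and a normal one. The gene stk31.S, whose mouse counterpart is a tudor-domain protein of germ cells, read 7.43, 7.64 and 5.11 in sex-reversed and 5.54, 7.47 and 7.37 in normal testis. The calcium kinase gene camk4.L, named after its values were seen, read 10.15, 9.83 and 7.98 in sex-reversed and 7.98, 9.66 and 10.34 in normal testis. Both were thus more than 1 log2 unit lower on sex-reversed replicate 3 and normal replicate 1 than on the other 4 arrays, and their group means differed by -0.07 and -0.01. This pattern occurred in 2 of the 164 members (1.22%), beside 9 of the 11485 probe sets (0.0784%). It was taken from the values of these members, so the shares are no test. The germ cell markers ddx4.L and dazl.L (2 of 9 genes measured) read 12.4 and 11.9 on that sex-reversed array and 12.6 and 12.0 on that normal array. The blood markers (5 of 8 genes, 7 probe sets) had their highest mean log2 deviations on these arrays, 0.213 on sex-reversed replicate 3 and 0.653 on normal replicate 1. On the other arrays they lay at -0.118 and -0.470 in sex-reversed testis and at -0.381 and 0.102 in normal testis. Single blood probe sets did not all follow these means. On normal replicate 1 gata1.L and ank1.S were at their highest, 8.70 and 5.57, while a probe set of tal1.S read 3.43, under each sex-reversed array. On sex-reversed replicate 3 hba1.S was at its highest, 5.14, and ank1.S at its lowest, 4.08. Markers of spermatids and sperm (7 of 16 genes, 8 probe sets) had mean deviations of -0.0294 on sex-reversed replicate 3 and -0.0411 on normal replicate 1. Their lowest mean deviation, -0.327, was on normal replicate 2. The part of any of these cells in the low values was not tested.

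**Figure D4:**
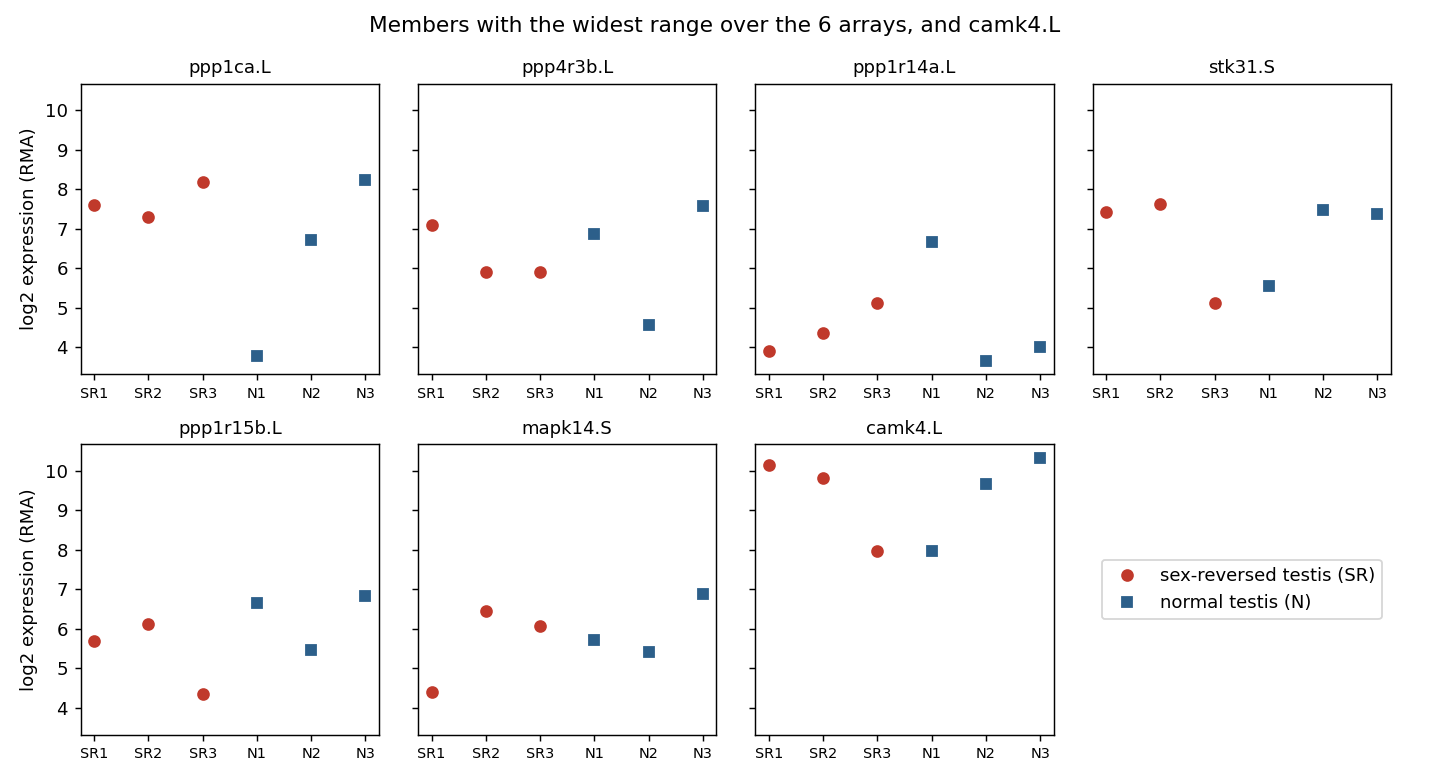
Log2 expression on each of the 6 arrays (SR1 to SR3, sex-reversed testis; N1 to N3, normal testis) for the 6 member probe sets with the widest range and for camk4.L. Values of stk31.S and camk4.L are lowest on SR3 and N1, and in ppp1ca.L the normal arrays run from 3.78 to 8.24.

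The L and S copies of 16 genes were both measured. In 12 of the 16 (75.0%) the differences of the copies had the same sign, beside 354 of 622 genes (56.9%) over the table, and copies may cross-hybridise. The gap between copies, each taken as the mean of its probe sets, had a median of 0.18 in the members and 0.28 over the table, and was widest for ppm1b (L -0.31, S 0.08), prkcsh (L -0.24, S 0.10) and map2k4 (L -0.52, S -0.20). Of 28 symbols with several probe sets 11 (39.3%) had all differences of 1 sign, beside 391 of 777 symbols (50.3%) over the table. The gap between the highest and the lowest difference of a symbol had a median of 0.31 in the members and 0.32 over the table, and was widest for ppp1ca.L (1.35), ppp1r15b.L (1.13) and camk2g.S (1.01).

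Partners of these enzymes outside the families gave 0 calls as well. Genes of RAS and RAF signalling (6 of 20 measured, 9 probe sets) were 4 higher and 5 lower. Their mean log2 deviation was 0.0555 to 0.110 on the sex-reversed arrays and -0.153 to -0.0152 on the normal arrays, without overlap. Taken singly, 2 of the 9 probe sets had groups apart, beside 9.63% of all probe sets. The germ cell kinase mos.L, which starts the MAP kinase cascade in frog oocytes, read 6.95, 6.79 and 6.46 in sex-reversed and 5.96, 5.10 and 5.68 in normal testis. All sex-reversed arrays were higher, by 1.15 (interval 0.49 to 1.81; adjusted p = 0.997 in limma), but a second probe set of mos.L differed by 0.08 (interval -0.49 to 0.66) with overlapping groups. The adaptor grb2.S differed by 0.52. Genes of PI3 kinase and mTOR signalling (5 of 19 measured) were 5 higher and 2 lower over 7 probe sets, with ilk.S at 1.69, which turned to -0.30 without normal replicate 3, and pik3r3.S at -0.58. Cyclic AMP genes (7 of 24) were 2 higher and 6 lower, with gnai3.S at 0.49 and akap10.L at 0.48 in a probe set (0.11 without sex-reversed replicate 1) and at -0.08 in another. Calcium genes (4 of 18) were 2 higher and 3 lower, with plcg1.L at 0.38 and nfatc3.S at -0.11.

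Direct partners of the phosphatases (12 of 23 genes measured, 19 probe sets) were 11 higher and 8 lower, with 0 calls. The inhibitor of PP2A cip2a.L read 6.21, 5.52 and 5.66 in sex-reversed and 4.78, 4.30 and 5.51 in normal testis. Its groups did not overlap, by a margin of 0.01, and the difference was 0.94 (interval 0.11 to 1.76; adjusted p = 0.997 in limma). The PP2A activator ptpa.L differed by -0.62 (interval -1.71 to 0.46).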

How the data were processed

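Testis RNA in 3 sex-reversed and 3 normal samples from hybrids was measured on 1-colour arrays. The submitters' processing notes name RMA as the step that gave the deposited log2 values; version, options and chip definition: not given in the sources used here. RMA corrects background, quantile-normalizes arrays and summarises each probe set, and a difference is therefore read against most other genes on the array. That the scale is log2 was read from the values. Probes were designed on X. laevis, and X. muelleri alleles may bind less well. Detection calls and batch labels were not used. The table held 0 columns beyond the 6 arrays.

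Symbols came from the platform table. Of 11485 probe sets 6798 had 1 symbol, 110 several and 4577 none; those with several symbols stayed unnamed. No sequence or genome was used.

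Each probe set was fitted with limma 3.58.1 (lmFit, eBayes, trend and robust off; R 4.3.3) with the normal mean subtracted; p-values are two-sided, adjusted by Benjamini and Hochberg's method across all 11485 probe sets, and called at 0.05. Intervals of 95% are from that fit. The fit was tested on simulated data, and the outcome is not reported here. The number of arrays, 3 per group, limits precision. The labels do not state that replicate numbers pair the arrays, and the main fit did not pair them. Deviations from the group means of same-numbered arrays correlated at -0.00684, -0.0247 and 0.139 across probe sets for numbers 1, 2 and 3. Differently numbered arrays were not compared in this way, so these values cannot settle whether the arrays are paired.

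Members, gene lists and alternatives were chosen with earlier results of these data known. Named were the 2 members per family with the largest difference, the 6 with the widest range, the 6 with the narrowest interval, the 3 genes whose copies and the 3 symbols whose probe sets diverged most, other probe sets of such genes, and 2 genes per list of partners; ppp2cal.S was set among the catalytic subunits by its name. Further members are given as examples of their family, chosen after their values were seen. Alternatives were a replicate block, median centring, further quantile normalization, a level filter (108 members stayed), other variance models and array weights. In others, probe sets with names ending in _x_at, _s_at or _a_at were left out, or each array was dropped in turn. Other thresholds and 1 value per symbol were used too. Marker lists of spermatids, Sertoli, steroidogenic, blood, oocyte, kidney and immune cells were measured too.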

Additional observations from a re-analysis of the deposited data

How the results depend on the processing

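The count of members past the threshold stayed at 0 in every alternative run, including an adjusted p of 0.10 and a replicate block, and the block (median difference -0.04; 106 intervals within 2-fold) changed no call. Over all probe sets the smallest adjusted p of the main fit was 0.051 (limma), so at 0.10 their share was not 0. The median difference over the members lay between -0.06 and 0.001 with 1 array left out, and between -0.05 and -0.03 elsewhere. Intervals within 2-fold numbered 104, 85 in the unmoderated test and 104 to 106 in the other settings that kept all 164 members and 6 arrays. They numbered 79 of the 128 members left without names ending in _x_at, _s_at or _a_at. Above the median level, which tests fewer probe sets, they numbered 68 of the 108 members, and with 1 array left out 81 to 89. Within 1.5-fold there were 12. Members with separate groups numbered 15 with further quantile normalization and 18 with median centring, of 164 each. They numbered 12 of the 108 above the median level and 12 of the 128 left by the filter on names. With 1 array left out they numbered 25 to 43 of 164, when 5 arrays separate more easily. Shares over all probe sets under these settings are not given here. Of 70 named probe sets, 57 moved by over 1.5 times or turned with 1 array left out, and 25 turned. With all arrays, 1 of 523 values turned: stk31.S was 0.10 with array weights.

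The ranges with 1 array left out, for those that turned, were -0.56 to 0.10 for prkcsh.L, -0.38 to 0.43 for prkcsh.S, -1.04 to 0.10 for csnk2b.S, -0.92 to 0.59 for ppp4r3b.L, -0.87 to 0.64 for ppp1r14a.L, -0.69 to 0.74 for stk31.S, -0.76 to 0.26 for mapk14.S and -0.46 to 0.086 for map2k4.S. They were -0.23 to 0.36 for a probe set of ppm1b.S, -0.033 to 0.26 for the flat probe set of ppp1ca.L, -0.037 to 0.046 for prkcz.L, -0.22 to 0.067 for a probe set of prkar1a.L, -0.72 to 0.090 for the second of prkag1.L, -0.50 to 0.0017 and -0.10 to 0.21 for 2 of ywhab.S, -0.079 to 0.23 for the second of ywhae.S and -0.30 to 2.92 for ilk.S. For 8 probe sets of camk2g.S they were -0.53 to 0.055, -0.48 to 0.017, -0.36 to 0.012, -0.20 to 0.092, -0.23 to 0.33, -0.26 to 0.031, -0.10 to 0.19 and -0.17 to 0.019. The cause was not tested beyond the loss of that array. Levels near the bottom of the scale (23 members below the 25th percentile) limit what can be read, since signal over background was not measured.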
